A study of Drosophila melanogaster with 76 samples.

Results

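The Hsp70 genes of the fruit fly Drosophila melanogaster are 6 protein-coding genes on the right arm of chromosome 3, Hsp70Aa, Hsp70Ab, Hsp70Ba, Hsp70Bbb, Hsp70Bb and Hsp70Bc. They were chosen by name from 14238 genes, and each was read with 5000 bp either side, which gives windows at 2 places, the cytological loci 87A and 87C. Every peak of every list that touched one of these windows was used, in embryos and larvae.

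Hsp70 is the main heat-inducible chaperone of the fly, a protein that binds unfolded proteins and helps them refold. Without heat, RNA polymerase II (Pol II) is loaded on the Hsp70 genes and pauses shortly after the transcription start, and GAGA factor (GAF), a DNA-binding protein that recognises GA repeats, keeps the promoters free of nucleosomes. On heating, heat shock factor binds the promoters and the paused polymerase is released into the gene. IntS11 is the RNA-cutting subunit of the Integrator complex, which cleaves nascent RNA at paused polymerase, and Zelda is the factor that opens chromatin at the first genes switched on in the zygote.

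The study mapped proteins on chromatin by ChIP-seq with antibodies to Zelda, GAF, Pol II, Pol II phosphorylated on serine 5 of its tail (pSer5, a mark of initiating and paused polymerase) and IntS11, in embryos titled 1–1.5 h and 2.5–3 h and in larvae titled 48AEL. Zelda, GAF, Pol II and pSer5 were mapped in wild-type and mutant embryos at both ages, IntS11 in wild-type embryos at both ages, and Pol II in larvae of both kinds, wild type and zygotic mutant, with 2 peak lists per group and 40 lists in all. These are the groups used here. The other 36 samples, among them input chromatin, IntS11 ChIP in embryos with mislocalized IntS11, α-amanitin embryos and the Pol II series of the rescue and knockdown experiments, were not analysed here. The design text says that IntS11 mutant lines were made. The allele, driver and strain are not given in the sources used here, and for these antibodies the title words IntS11 mislocalized are found on wild-type embryo samples as well as on mutant ones, so the genotypes below are only the words WT and Mutant of the titles, and ZygoticMutant for larvae. The duplicates are not said to come from separate collections, so p-values measure the spread between lists, which may be technical. Input chromatin is titled by age and genotype and not by antibody, so different antibodies may share chromatin. Tests that pool antibodies treat them as independent, and their p-values may then be too small. Each list held 1276 to 12202 peaks covering 0.908 to 19.3 Mb. Wild-type Pol II lists had a peak on 8 of 8 early embryo marker genes at 1–1.5 h and on 7 of 8 at 2.5–3 h, against 1 of 8 in wild-type larvae. No larval marker (cuticle and digestive enzyme genes) of 8 had a Pol II peak in wild-type embryos or in larvae of either genotype, so the defining markers of the larval label are absent from these lists.

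In build dm6, the 87A copies are Hsp70Aa at 3R:11954163-11956544 and Hsp70Ab at 3R:11958535-11960909, separated by 1990 bp. At 87C lie Hsp70Ba at 3R:12465453-12467776, then, after 34733 bp, Hsp70Bbb at 3R:12502510-12504856, Hsp70Bb at 3R:12505793-12508139 and Hsp70Bc at 3R:12509076-12511461, which follow each other at gaps of 936 bp. The loci are 504543 bp apart. The gene table gives no strand. Start sites were therefore placed from textbook knowledge: the 87A pair is transcribed outwards from the shared gap, and at 87C Hsp70Ba is transcribed away from the other 3 copies, which all point the same way. The copies are nearly identical in sequence, so a read inside a copy cannot be assigned to it with certainty, and how the authors placed such reads is not given in the sources used here. The windows of the 87A pair overlap each other, as do those of Hsp70Bbb, Hsp70Bb and Hsp70Bc, so the 6 genes are not 6 independent observations. The windows also hold parts of CG31211, CG3281, aurA and CG12213 at 87A, and of Polr3C, CG5608, Octbeta3R and the pseudogenes CR46154 and CR46155 at 87C. A value for a window is the percent of its bases under peaks. The lists give peak positions only, so it measures how much is called as bound, not how strongly.

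In wild-type embryos the start of every Hsp70 copy lay under GAF, Pol II and pSer5 peaks. Both lists covered the start position of 6 of 6 copies for each of these antibodies at each age, whereas Zelda covered 3 of 6 at each age. The Pol II peaks were short at Hsp70Bc and long at Hsp70Ba and at 87A. At 2.5–3 h, the Pol II peak of Hsp70Bc reached from 306 bp before to 61 bp after the start in replicate 1 and from 581 bp before to 55 bp after it in replicate 2. At Hsp70Ba it began 3224 bp before the start in both lists and ended 358 bp and 330 bp after it. A Pol II peak of 3290 bp in replicate 1 and 3308 bp in replicate 2 spanned the whole gap between the divergent Hsp70Aa and Hsp70Ab starts. The pSer5 peaks at 87A were longer still, at 18321 bp and 18374 bp at 2.5–3 h, and took in both genes and their neighbours.

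**Figure D1:**
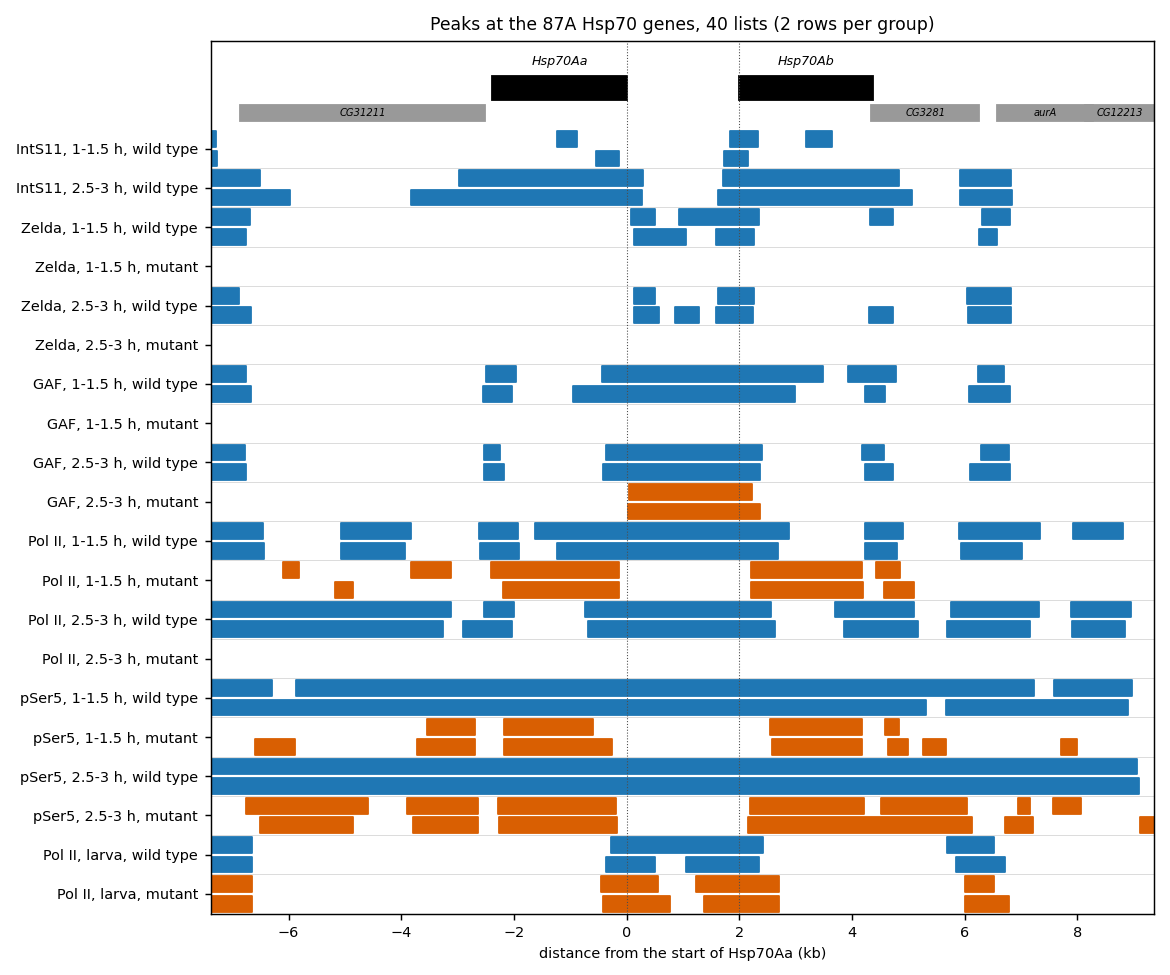
Peaks around Hsp70Aa and Hsp70Ab in each of the 40 lists, against the distance from the start of Hsp70Aa in kb, with 2 rows per group (replicate 1 above replicate 2), wild type in blue and mutant in orange; black boxes are the Hsp70 genes, grey boxes their neighbours and dotted lines the 2 starts. In mutant embryos Pol II peaks at 1–1.5 h and pSer5 peaks at both ages sit on the genes and leave the gap between the starts empty.

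IntS11 covered far more of the genes at the later age in wild-type embryos. At 1–1.5 h it covered 14.7% and 17.0% of the gene Hsp70Aa, 34.1% and 7.03% of Hsp70Ab, 1.25% and 1.42% of Hsp70Ba, and 16.7% and 0% of Hsp70Bb, and Hsp70Bbb and Hsp70Bc had no IntS11 peak in either list. At 2.5–3 h it covered 100% of Hsp70Aa and of Hsp70Ab in both lists, 95.9% and 92.1% of Hsp70Bbb, 96.0% and 95.4% of Hsp70Bb, 69.8% and 75.4% of Hsp70Bc and 30.9% and 28.7% of Hsp70Ba. The later lists lay above the earlier ones at all 6 windows. The direction is shared with most genes: 86.4% of the 9470 genes with any IntS11 peak showed the same. The lists grew from 0.995 and 0.908 Mb to 5.58 and 6.34 Mb. At 2.5–3 h the Hsp70 windows were covered 25.8% to 65.2% in replicate 1 and 30.9% to 71.8% in replicate 2. The median over all 14238 genes was 3.72% and 4.45%. The lowest cover at the later age was that of Hsp70Ba. It held IntS11 at its start, in a short peak inside it and, in replicate 2 only, at its far end.

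Zelda and GAF covered less of the Hsp70 windows in mutant embryos. At Hsp70Aa and Hsp70Ab no Zelda peak lay in the windows of any mutant list at either age. The Zelda cover of the Hsp70Aa window was 23.9% and 18.1% in the wild-type lists at 1–1.5 h and 12.2% and 21.6% at 2.5–3 h. The wild-type and mutant lists did not overlap at this window at either age. Both mutant lists lay below both wild-type lists at 6 of 6 windows at 1–1.5 h, against 87.6% of all genes, and at 4 of 6 at 2.5–3 h, against 85.5%. Such shares are over the genes whose window had any cover in the lists compared. The exceptions at 2.5–3 h were Hsp70Bb, at 3.13% and 4.36% in wild type and 3.64% and 2.19% in mutant, and Hsp70Bc beside it, at 3.12% and 4.34% against 3.63% and 2.19%, and there the groups overlapped. Of the 3 copies with a Zelda peak on the gene in both wild-type lists, both mutant lists had lost it at 3 at 1–1.5 h, against 90.4% of such genes, and at 2 at 2.5–3 h, against 77.6%. Mutant Zelda lists covered 1.66 to 3.38 Mb and wild-type ones 10.9 to 13.3 Mb. With only the longest peaks, as many as in the shortest list, the mutant lists were lower at 1 window at each age and higher at 1 window at 1–1.5 h and at 2 at 2.5–3 h.

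GAF peaks were absent from the 87A windows of the mutant at 1–1.5 h and present at 2.5–3 h. The GAF cover of the Hsp70Ab window was 46.5% and 44.8% in wild type and 0% in both mutant lists at 1–1.5 h. At 2.5–3 h it was 31.8% and 35.0% in wild type and 17.6% and 19.0% in mutant. The mutant peak at that age filled the gap between the starts of the pair, from 1947 bp before to 235 bp after the Hsp70Ab start in replicate 1 and from 1976 bp before to 374 bp after it in replicate 2. At 87C a GAF peak reached the start in both mutant lists at Hsp70Ba, Hsp70Bbb and Hsp70Bc at 1–1.5 h, and at Hsp70Bb in replicate 1 only. At Hsp70Bbb it ran from 427 bp before to 52 bp after the start and from 627 bp before to 50 bp after it. A GAF peak lay on the gene in both mutant lists for 3 of 6 copies at 1–1.5 h and for 5 of 6 at 2.5–3 h. Among all genes with a GAF peak on the gene in both wild-type lists, the share with one in both mutant lists too was 16.2% at 1–1.5 h and 36.8% at 2.5–3 h. The cover of the window was lower in both mutant lists at 6 of 6 windows at 1–1.5 h, against 74.6% of all genes, and at 3 of 6 at 2.5–3 h, against 73.6%. The later count depends on the mutant list used. The Hsp70Bbb window was covered 42.0% and 48.7% in wild type and 26.7% and 54.3% in mutant, so the mutant lists lay on either side of the wild type. Without mutant replicate 2 the count at 2.5–3 h was 6 of 6 lower, and without mutant replicate 1 the mutant list was higher at 3 of 6, Hsp70Bbb, Hsp70Bb and Hsp70Bc. In the mutant, the later GAF lists lay above the earlier ones at 6 of 6 windows, against 60.2% of all genes.

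Over Zelda and GAF at both ages, all 6 windows were lower in the mutant in a two-sided exact permutation test of genotype within antibody and age, with Benjamini-Hochberg adjustment over 11769 genes. The Hsp70Aa window went from a mean of 29.4% ± 12.7 to 4.58% ± 8.48 (SD, n = 8 lists of both antibodies and ages each), a difference of -24.8 percentage points. Hsp70Ab differed by -24.5 and Hsp70Ba by -22.8 percentage points, and these 3 had an adjusted p of 0.00349 by this exact test, from the smallest p it can give, 0.00154. Hsp70Bbb differed by -18.8 (exact permutation, adjusted p = 0.0201), Hsp70Bb by -13.0 (adjusted p = 0.0332, same exact test) and Hsp70Bc by -7.78 percentage points (adjusted p = 0.0239, same exact test). The median over all genes tested was -6.53, and 69.8% of all genes were called lower, so a call here is shared with most of the genome. The calls on Hsp70Bbb, Hsp70Bb and Hsp70Bc did not hold without wild-type replicate 2 or without mutant replicate 1, each of which left 3 of 6, and over the gene alone the 3 called were Hsp70Ab, Hsp70Ba and Hsp70Bb. With only the longest peaks, as many as in the shortest list, 2 of 6 were called, and Hsp70Ab was not among them (exact permutation, adjusted p = 0.0604), and a yes or no value for any peak in the window also called 2.

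**Figure D2:**
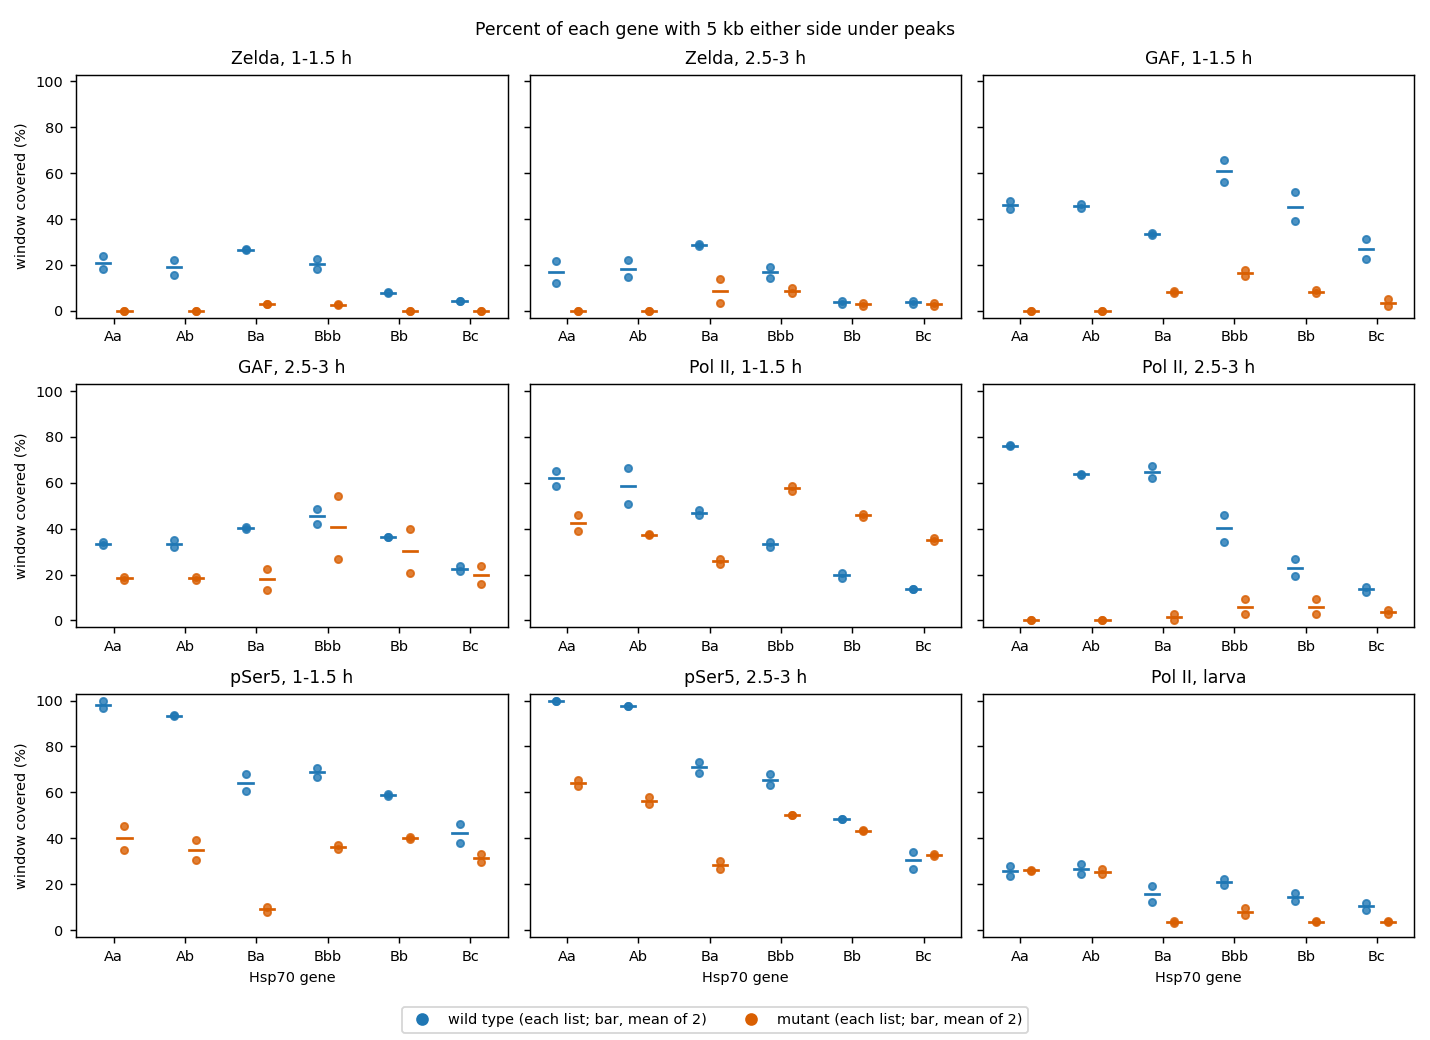
Percent of each Hsp70 gene with 5000 bp either side that lies under peaks, for each antibody and age; points are single lists, bars the mean of 2, wild type in blue and mutant in orange. Pol II at 1–1.5 h is lower in the mutant at Hsp70Aa, Hsp70Ab and Hsp70Ba and higher at Hsp70Bbb, Hsp70Bb and Hsp70Bc, and at 2.5–3 h it is lower at all 6.

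The Pol II cover of the windows at 1–1.5 h differed in opposite directions among the copies. Both mutant lists lay below both wild-type lists at 3 of 6 windows, Hsp70Aa, Hsp70Ab and Hsp70Ba, against 81.1% of all genes, and above them at the other 3, Hsp70Bbb, Hsp70Bb and Hsp70Bc, against 8.5% of all genes. The Hsp70Aa window was covered 65.2% and 58.7% in wild type and 45.8% and 38.9% in mutant. The Hsp70Bbb window was covered 34.2% and 32.2% in wild type and 58.6% and 56.5% in mutant. In both windows the 4 lists fell into separate ranges, with opposite order. Hsp70Bb had 20.8% and 18.7% in wild type and 46.5% and 45.2% in mutant, and Hsp70Bc 13.8% and 13.7% against 35.8% and 34.5%. Over the gene alone the mutant lists were lower at 0 of 6 copies, against 73.3% of all genes, and higher at 4 of 6, against 7.62%. Hsp70Ab, lower by its window, was higher by the gene, at 43.4% and 35.0% in wild type and 83.6% and 83.7% in mutant. A Pol II peak lay on the gene in all 4 lists at 5 of 6 copies, all but Hsp70Ba, against 15.3% of the genes with one in both wild-type lists. In total Mb the Pol II lists of the 2 genotypes were of like size at this age. They covered 7.38 and 6.69 Mb in wild type and 8.41 and 7.27 Mb in mutant. Over gene windows the lists were not alike. The median cover over all genes was 6.57% and 5.56% in wild type and 0% in both mutant lists. With 2 lists against 2, the smallest exact permutation p is 0.333, so no single antibody and age can pass a test.

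At 2.5–3 h, Pol II was nearly gone from the windows in the mutant. The Hsp70Aa window was covered 75.9% and 76.3% in wild type and 0% in both mutant lists, and Hsp70Ba 67.1% and 62.0% against 0% and 2.82%. Both mutant lists lay below both wild-type lists at 6 of 6 windows, against 85.6% of all genes. A Pol II peak on the gene was lost in both mutant lists for 5 of 6 copies, against 91.7% of the genes that had one in both wild-type lists. Hsp70Bbb alone had a peak on the gene in both mutant lists too, as did 3.74% of such genes, but not in the same place. The mutant peak was of 348 bp in replicate 1 and 1134 bp in replicate 2. It began 1566 bp and 993 bp after the start, where wild type had no Pol II peak. Mutant Pol II lists covered 3.12 and 3.98 Mb at this age and wild-type ones 11.4 and 10.2 Mb, and the part of list size in the loss was not tested. Within the mutant, the later Pol II lists lay below the earlier ones at 6 of 6 windows, against 50.4% of all genes.

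The pSer5 cover was lower in the mutant at both ages, but every copy had a peak on the gene in every list. The Hsp70Aa window was covered 96.6% and 100% in wild type and 34.8% and 45.2% in mutant at 1–1.5 h, and 100% in both wild-type lists and 65.2% and 62.6% in mutant at 2.5–3 h. The Hsp70Ba window had 60.6% and 68.0% in wild type and 9.91% and 8.04% in mutant at 1–1.5 h. In each of these comparisons the mutant lists lay below the wild-type lists. This held at 6 of 6 windows at 1–1.5 h, against 78.7% of all genes, and at 5 of 6 at 2.5–3 h, against 88.7%. Hsp70Bc was the exception, at 26.7% and 33.9% in wild type and 32.9% and 32.5% in mutant. A pSer5 peak, of any length and place, lay on the gene in all 4 lists at 6 of 6 copies at each age. Of the genes with one in both wild-type lists, 20.3% had one in all 4 lists at 1–1.5 h and 28.4% at 2.5–3 h. It need not be the same peak: in the mutant none covered a start position in both lists, as described below.

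Over Pol II and pSer5 at both ages, 3 of 6 windows were called lower in the mutant by the exact permutation test with Benjamini-Hochberg adjustment over 12184 genes, against 75.2% of all genes. Hsp70Aa differed by -47.5, Hsp70Ab by -46.2 and Hsp70Ba by -45.6 percentage points, each with an adjusted p of 0.00237 by the exact test, and the median over all genes was -15.2. The other 87C copies did not pass: Hsp70Bbb differed by -14.4 (exact permutation, adjusted p = 0.0959), Hsp70Bb by -3.71 (adjusted p = 0.552, same exact test) and Hsp70Bc by 0.77 percentage points (adjusted p = 0.891, same exact test). Over the gene alone the last of these was called higher, by 30.2 percentage points (exact permutation, adjusted p = 0.0153), and Hsp70Ab and Hsp70Ba were no longer called. Taking the 4 antibodies as one family of strata, 5 of 6 windows were called lower, against 77.7% of 12825 genes. This test treats the antibodies as independent, though they may share chromatin. Hsp70Aa, Hsp70Ab and Hsp70Ba differed by -36.2, -35.3 and -34.2 percentage points (exact permutation, adjusted p = 3.32e-06 each), Hsp70Bbb by -16.6 (adjusted p = 0.00352, exact), Hsp70Bb by -8.34 (adjusted p = 0.0486, exact) and Hsp70Bc by -3.51 (adjusted p = 0.227, exact). The call on Hsp70Bb did not hold when any replicate of either genotype was left out. Whether the genotype difference of Pol II and pSer5 changed with age was tested in the same way, and 0 of 6 windows and 0 of 12184 genes passed. Of these, 0 of the 6 and 399 genes (3.27%) had an unadjusted p below 0.05 in this exact permutation test. Relabelling genotype within each age also breaks a genotype difference that both ages share, which widens the reference values. The test therefore cannot decide whether the difference changed with age.

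In wild type, Pol II and pSer5 peaks spanned the starts. In mutant embryos most start positions were bare and most of the remaining peaks began inside the genes. At 1–1.5 h Pol II covered the start position in both lists at 6 of 6 wild-type copies and 1 of 6 mutant ones, Hsp70Bb. The mutant start of Hsp70Ba was covered in replicate 2 only. For pSer5 the counts were 6 of 6 and 0 of 6 at each age. The gene table gives no strand, so the same count was not made over all genes. A gene without a peak also has a bare start. Of genes with a Pol II peak in both wild-type lists at 1–1.5 h, 79.5% had none in either mutant list. For pSer5 this share was 66.7% at 1–1.5 h and 58% at 2.5–3 h. Bare starts alone therefore cannot be read as particular to Hsp70. At Hsp70Bbb the wild-type Pol II peak at 1–1.5 h ran from 491 bp before to 66 bp after the start in replicate 1 and from 529 bp before to 79 bp after it in replicate 2. The mutant peak ran from 253 bp to 2222 bp and from 257 bp to 2252 bp after the start, so the genotypes' peaks did not touch. At Hsp70Ab the mutant Pol II peak began 207 bp and 223 bp after the start, and at Hsp70Aa 142 bp and 130 bp after it. Hsp70Bc held a pair of mutant peaks in each list, the first beginning 264 bp and 285 bp after the start. The mutant pSer5 peaks at 2.5–3 h also began inside the genes, 281 bp and 264 bp after the start of Hsp70Bbb, 190 bp and 163 bp after that of Hsp70Ab, and 272 bp after that of Hsp70Bc in both lists.

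**Figure D3:**
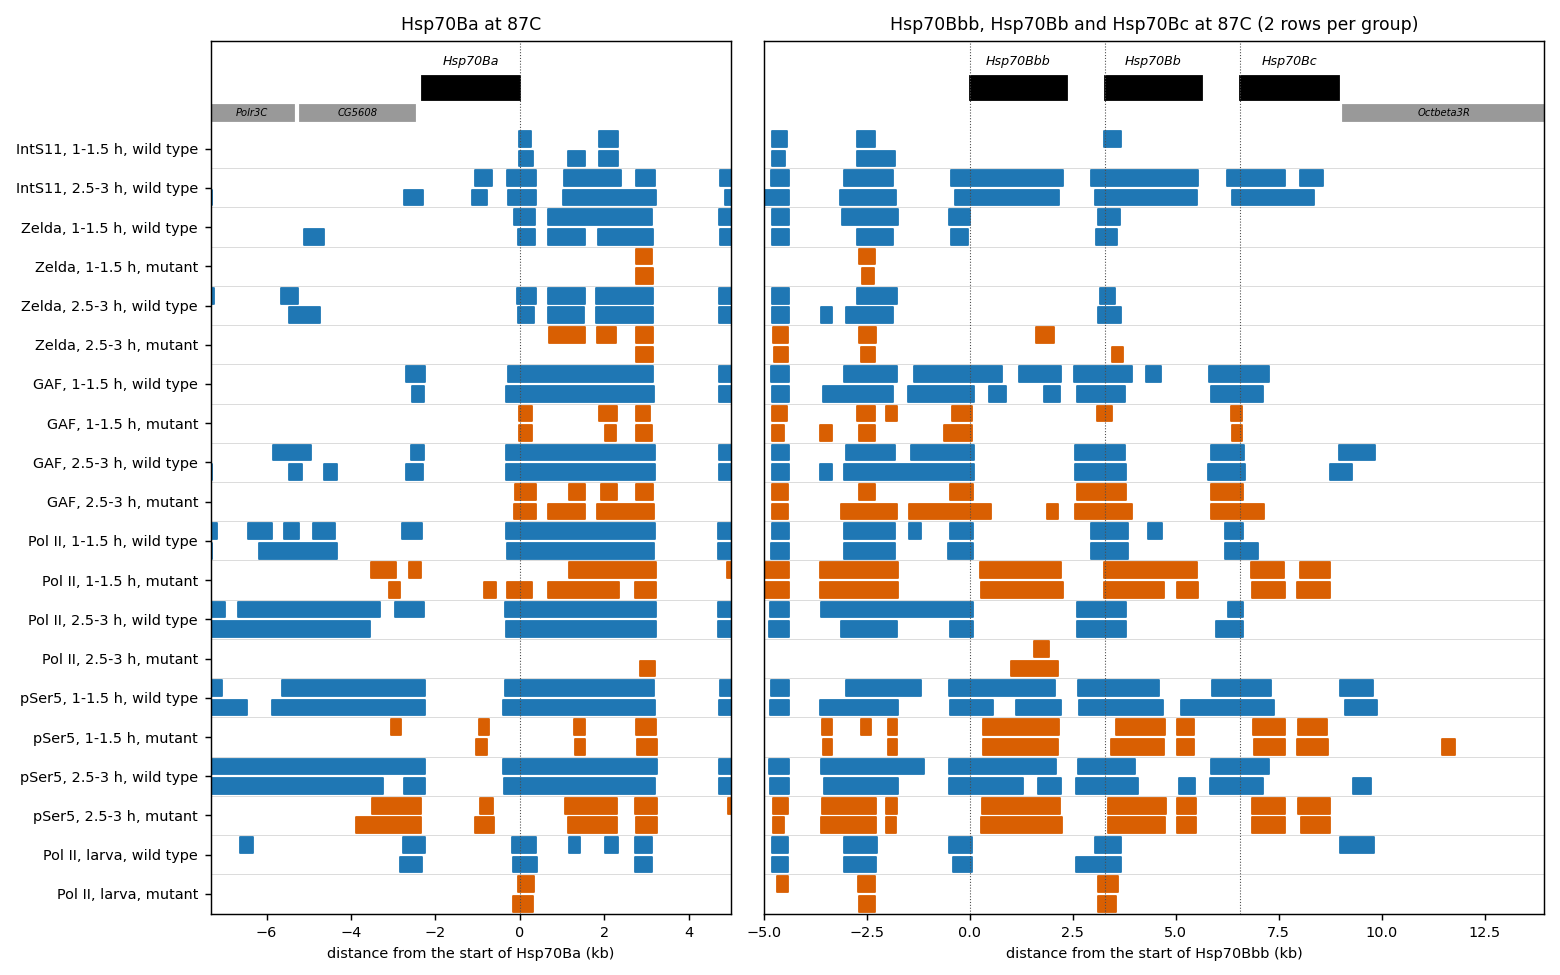
Peaks around Hsp70Ba (left, distance in kb from its start) and around Hsp70Bbb, Hsp70Bb and Hsp70Bc (right, distance in kb from the start of Hsp70Bbb) in each of the 40 lists, with 2 rows per group, wild type in blue and mutant in orange; boxes are genes and dotted lines starts. Wild-type Pol II peaks of Hsp70Bbb end within 79 bp after the start, and mutant peaks at 1–1.5 h begin 253 bp or more after it.

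The interior of a gene, from 500 bp inside each end, was measured for the 9147 genes of at least 1500 bp; it was chosen after the maps had been seen and is given without a test. Pol II at 1–1.5 h covered 0% of the interior of Hsp70Bbb in both wild-type lists and 100% in both mutant lists. Hsp70Ab went from 28.7% and 14.2% to 100% in both lists, and Hsp70Bc from 0% in both to 72.2% and 78.6%. Both mutant lists were higher at 5 of 6 copies, against 14.4% of the genes with any cover there, and 58.6% of those genes were lower. Hsp70Ba was the exception, at 0% in both wild-type lists and 0% and 20.5% in mutant. For pSer5 the mutant lists were higher at 3 of 6 copies at each age, against 15% and 9.07% of genes. They were lower at 1 of 6 at 1–1.5 h, Hsp70Ab, at 100% in both wild-type lists and 96.2% and 93.3% in mutant, against 56% of genes, and at 0 of 6 at 2.5–3 h, against 72.8%. The copies higher at 2.5–3 h were Hsp70Ba, at 0% in both wild-type lists and 23.2% and 35.2% in mutant, Hsp70Bb, at 16.3% and 25.5% against 80.0% and 78.2%, and Hsp70Bc, at 14.7% and 3.68% against 78.1% and 71.9%. Hsp70Aa and Hsp70Ab were at 100% in all 4 lists at that age. Pol II at 2.5–3 h was higher at 1 of 6, Hsp70Bbb, against 4.54% of genes, and lower at 2 of 6, Hsp70Aa and Hsp70Ab, against 68.2%.

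**Figure D4:**
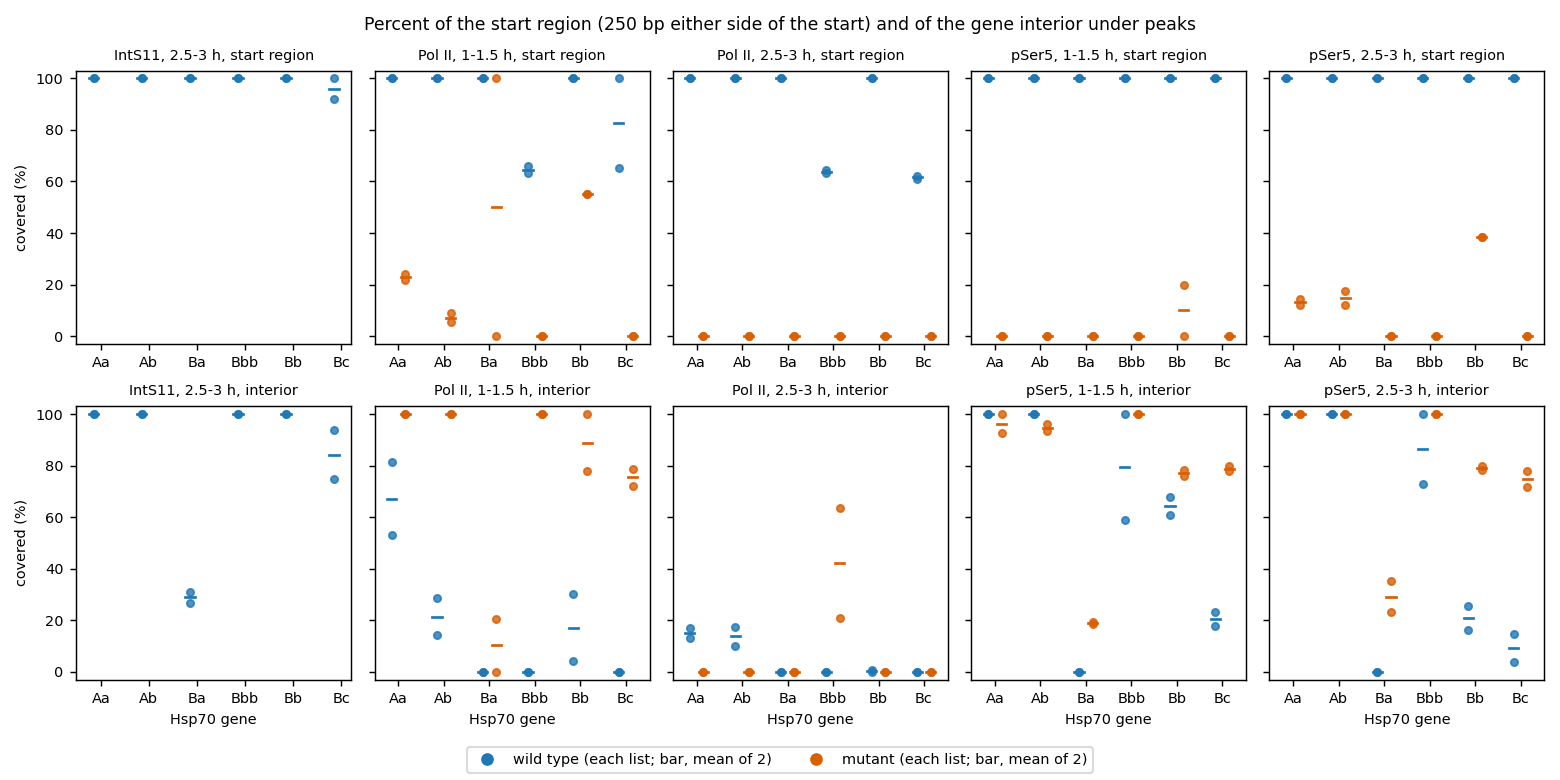
Percent of the start region (250 bp either side of the start, upper row) and of the gene interior (lower row) under peaks of IntS11, Pol II and pSer5 in embryos for each Hsp70 gene; points are single lists, bars the mean of 2, wild type in blue and mutant in orange. In embryos the start region is less covered by Pol II and pSer5 in both mutant lists at every copy except Hsp70Ba under Pol II at 1–1.5 h, where 1 list has 100%, while the interior at 1–1.5 h under Pol II reaches 72.2% to 100% at 5 of 6 copies.

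The start region, 250 bp either side of the start, was wholly covered by pSer5 in all 4 wild-type lists at all 6 copies. In mutant it was covered 0% to 20.0% at 1–1.5 h and 0% to 38.5% at 2.5–3 h. A measure that needs no strand is the interior cover minus that of both gene ends, each with 250 bp either side. It was higher in both mutant lists at 6 of 6 copies for Pol II and for pSer5 at each embryo age. Of genes of at least 1500 bp with any cover, 78.4% and 74.8% were also higher for Pol II, and 73.7% and 72.6% for pSer5. This value also rises where cover is lost from the ends alone.

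In larvae, the Pol II peaks of the zygotic mutant covered like parts of the windows as in wild type at 87A and less at 87C. The Hsp70Aa window was covered 27.8% and 23.6% in wild type and 25.9% and 26.3% in mutant, and the groups overlapped. The Hsp70Ba window was covered 19.1% and 12.1% in wild type and 3.16% and 3.85% in mutant. Both mutant lists were lower at 4 of 6 windows, all at 87C, against 12.5% of genes lower and 17.4% higher. A peak lay on the gene in all 4 lists at 4 of 6 copies, against 87.1% of genes with one in both wild-type lists. It was lost at 1, Hsp70Bbb, against 2.84%, and Hsp70Bc had none in either genotype. Larval Pol II peaks still spanned the starts: at Hsp70Ab the mutant peak ran from 759 bp before to 719 bp after the start in replicate 1 and from 617 bp before to 716 bp after it in replicate 2, and in wild type it ended 436 bp and 366 bp after the start. The interior of Hsp70Ab was covered 16.0% and 15.8% in the mutant larvae and 0% in wild type. The start position was covered in both lists at 5 of 6 copies in wild type and 4 of 6 in the mutant. The wild-type larval lists covered 5.80 and 3.84 Mb and the mutant ones 4.15 and 4.99 Mb.

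Most other genes of the heat shock response were lower in the mutant over their windows, as were most genes. Of 7 other members of the Hsp70 family, 6 were called lower in the mutant for Zelda and GAF and 7 for Pol II and pSer5 by the exact permutation test with adjustment over all genes, with median differences of -12.0 and -24.2 percentage points. Over all genes tested, 69.8% and 75.2% were called lower, and the medians were -6.53 and -15.2. Of 11 other heat shock genes (small Hsps, Hsp83, Hsp60A, DnaJ-1 and stv) the counts were 10 and 11, with medians of -20.8 and -28.1. Of 11 genes for the transcription and pausing machinery, among them Hsf, which encodes heat shock factor, and Trl, which encodes GAF, 9 were lower and 1 higher in each test. None of these lists had a gene called higher other than Parp1, a poly(ADP-ribose) polymerase. Over the gene alone, Pol II at 1–1.5 h was higher in both mutant lists at 1 of 7 other family members, Hsp68. It was higher at 2 of 11 other heat shock genes, Hsp23 and Hsp26, and at 1 of 11 machinery genes, Parp1. In the same order, 4, 4 and 8 genes were lower in both mutant lists. Of all genes with any cover, 7.62% were higher and 73.3% lower. Hsp68, the other strongly heat-inducible gene of the family, had 30.7% and 29.2% of the gene under Pol II in wild type and 93.1% and 80.2% in mutant at that age, and the groups did not overlap. Hsp26, which encodes a small heat shock protein, had 14.0% and 11.8% in wild type and 42.5% and 65.8% in mutant, and Hsp23, another of that kind, 46.5% and 23.1% against 71.8% and 76.8%.

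The windows most like the Hsp70 ones over the 40 lists, by the mean absolute difference in percent covered, were those of CG30398, Tango11, CG5412, CG32095 and EloB for the 87A pair, at 10.1 to 10.8 percentage points. For the mean of the 87C copies they were CG17786, larp, CG11700, Vha14-1 and Ubi-p5E, at 8.71 to 10.0. The loci differed from each other by 13.8 percentage points, and the medians over all genes outside the windows were 31.2 for 87A and 21.4 for 87C.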

How the data were processed

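Peak lists of 40 samples were used, and the other 36 of the 76 samples were not analysed here. Per the labels' protocols, embryos were fixed with formaldehyde, chromatin was immunoprecipitated in duplicate with the Pierce Magnetic ChIP Kit, and libraries were made for MGI sequencing. Build dm6 and the tools MACS2 2.2.7.1, Bowtie2 2.2.5, Trimmomatic 0.39, deepTools 3.5.1 and SAMtools 1.18 are listed in the submitters' processing notes, without order, threshold, control or the treatment of reads that fit several places. The deposited lists give chromosome, start and end of each peak, as the authors called it per sample, with no height, score or reads, so depth is unknown and no interval that needs it is given. Within a list no peaks overlapped.

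Genes came from RefSeq's table of the Release 6 assembly (protein-coding, microRNA and snRNA genes), which pairs symbols with positions. All 48 further symbols were found, 4 of them under another name. The percent of each gene with 5000 bp either side under peaks was computed per list and tested by a two-sided exact permutation of genotype within antibody and age, for every gene with any cover, with Benjamini-Hochberg adjustment at 0.05 over all of them. The tests over 4 antibody-age strata can give no p below 0.00154, and 364 (Zelda and GAF) or 377 (Pol II and pSer5) genes at that p are needed for any to pass. The test procedure, apart from that for the change with age, was first checked on simulated data with known changes. Named genes were all 6 members, the genes in their windows, 3 lists of heat shock genes and the 5 most alike windows. The members and lists were chosen with earlier results of these data known. Alternatives were the gene alone, the gene with 500 bp either side, peaks of at least 500 bp, intervals joined up to 400 bp, only the longest peaks, as many as in the shortest list, any peak in the window, a replicate block, leaving out each replicate and, for a peak on the gene, an overlap of at least 50% of it. Start regions, interiors and the interior minus the ends were added after seeing the data.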

Additional observations from a re-analysis of the deposited data

Results flagged for a closer look

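Pol II at Hsp70Bbb, Hsp70Bb and Hsp70Bc stood out because both mutant lists moved one way at 1–1.5 h and the opposite way at 2.5–3 h and in larvae. The larvae are titled zygotic mutant and the embryos mutant, so age and kind of mutant cannot be told apart there. The windows of these genes overlap, so they are not independent cases. The share of all genes with such a reversal was not computed. In percentage points of the window, mutant minus wild type, Hsp70Bbb differed by 24.4 at 1–1.5 h, -34.2 at 2.5–3 h and -12.8 in larvae. Hsp70Bb differed by 26.1, -17.1 and -10.8, and Hsp70Bc by 21.4, -9.89 and -6.73, in the same order. The difference between ages was not tested for Pol II alone. Over Pol II and pSer5 together it did not pass at any of the 3 genes (exact permutation, adjusted p = 0.877 each). That test cannot decide the question, since its relabelling also breaks a genotype difference shared by both ages.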

How the results depend on the processing

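Counts of the 6 Hsp70 windows depended mainly on what was measured. Over the gene alone, Zelda and GAF called 3 windows in place of 6, both mutant lists were lower under Zelda at 3 (1–1.5 h) and 2 (2.5–3 h) and under pSer5 at 3 and 2, Pol II at 1–1.5 h was lower at 0 of 6 in place of 3, and windows counted as higher were 1 for Pol II at 2.5–3 h, 1 and 2 for pSer5 and 2 in larvae. Over the gene alone the difference in the test of all 4 antibodies changed sign at Hsp70Bbb, Hsp70Bb and Hsp70Bc. It was 9.45 percentage points (exact permutation, adjusted p = 0.306), 3.78 (adjusted p = 0.610, same exact test) and 12.7 (adjusted p = 0.0402, same exact test), in that order. Not every antibody changed sign. In the same order, Zelda and GAF differed by -7.9, -11.5 and -4.7 percentage points, and Pol II and pSer5 by 26.8, 19.1 and 30.2. For Pol II and pSer5 the window of Hsp70Bc already differed by 0.77. The flanks are left out of these values, and the cause of the sign changes was not tested. With 500 bp either side, all 4 antibodies called 3 windows in place of 5, Pol II at 1–1.5 h was lower at 1, pSer5 at 2.5–3 h higher at 1 and larval Pol II higher at 2. With only the longest peaks, as many as in the shortest list, Zelda and GAF called 2, Zelda was lower at 1 window at each age and higher at 1 (1–1.5 h) and 2 (2.5–3 h), and the cause was not tested. With peaks of at least 500 bp, pSer5 at 2.5–3 h was higher at 1. Any peak in the window, a yes or no value, called 2 windows for Zelda and GAF, 0 for Pol II and pSer5 and 2 for all 4, and lists were separate at 2 for Zelda at 2.5–3 h, GAF at 1–1.5 h and Pol II at 2.5–3 h and at 0 for GAF at 2.5–3 h, Pol II at 1–1.5 h in either direction, pSer5 at both ages and larvae.

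Leaving out each replicate gave 3 to 6 windows for Zelda and GAF, 3 to 6 lower and 0 to 3 higher for GAF at 2.5–3 h, 0 to 1 higher for pSer5 at 2.5–3 h and 0 to 1 higher in larvae. The other counts of windows called, of windows with separate lists and of interiors higher in the mutant stayed within 1.5 times of those reported. Counts of start positions were not recomputed. Most counts of copies with a peak on the gene in both lists fell when at least 50% of the gene had to be covered. For Zelda, GAF and larval Pol II they were 0 in every group. For embryo Pol II they were 1 in wild type and 5 in mutant at 1–1.5 h, and 0 in both at 2.5–3 h. For pSer5 they were 4 in wild type and 5 in mutant at 1–1.5 h, and 3 and 5 at 2.5–3 h. For IntS11 they were 0 at 1–1.5 h and 5 at 2.5–3 h.

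Same-numbered lists did not deviate together: correlations of their deviations over 14238 genes ranged from -0.178 in larvae to 0.103. With a replicate block, 4 windows were called for Zelda and GAF, 3 for Pol II and pSer5, 4 for all 4 antibodies and 0 for the change with age. Hsp70Bb and Hsp70Bc were no longer called for Zelda and GAF (exact, adjusted p = 0.0717 each), nor Hsp70Bb for all 4 antibodies (exact, adjusted p = 0.104). In larvae, 4 windows were lower in both same-numbered pairs and 5 in both crossed pairs, an alternative chosen after seeing the data.

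The lists hold no reads, so depth is unknown, weak binding below the authors' threshold reads as none, and longer peaks cannot be told apart from stronger ones. Reads between the copies cannot be placed with certainty.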
